A study of Mus musculus with 6 samples.

Results

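The TFII-I transcription factor family has 3 genes in the mouse, Gtf2ird1, Gtf2i and Gtf2ird2, and these were taken by symbol from the 53379 gene identifiers counted in each library. The data are RNA sequencing counts from cerebral cortex of C57BL/6 mice aged 2 months. There were 3 libraries labelled GTF2ird1-/- (replicates 5, 6 and 7), called knockout here, and 3 wild type libraries (replicates 1, 3 and 4). The title of the series describes the cells as Gad2+ neurons. The sources used here do not give the mutated part of Gtf2ird1, the method of cell isolation, the sex of the mice or any pooling of animals. Nor do they say whether each library came from its own animal, so the tests measure only the spread between these libraries.

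The proteins of this family share a repeated DNA-binding domain, the I-repeat, and in humans their genes lie in or beside the chromosome segment deleted in Williams syndrome. Gtf2i encodes TFII-I, the founding member, which binds initiator and E-box elements in the nucleus and is also a cytoplasmic protein that binds phospholipase C gamma and is phosphorylated by the kinase BTK. Gtf2ird1 encodes a mainly repressive factor that prefers the motif GGATTA and is known to bind and restrain its own promoter. Gtf2ird2 is the least studied of them and carries a segment derived from a transposon.

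All 3 genes lie together on chromosome 5 in GRCm38, the assembly that mm10 also names. Gtf2ird2 (ENSMUSG00000015942.9) runs on the plus strand from 134184019 to 134224355. Gtf2i (ENSMUSG00000060261.15) follows after a gap of 13478 bases, on the minus strand from 134237834 to 134314760. Gtf2ird1 (ENSMUSG00000023079.14) lies 42895 bases further on, on the minus strand from 134357656 to 134456716. The annotation gives Gtf2ird1 31 transcripts, Gtf2i 28 and Gtf2ird2 6, with 7594, 10199 and 6200 bases of merged exon. Exons cover 7.67% of the Gtf2ird1 span, 13.3% of the Gtf2i span and 15.4% of the Gtf2ird2 span.

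**Figure D1:**
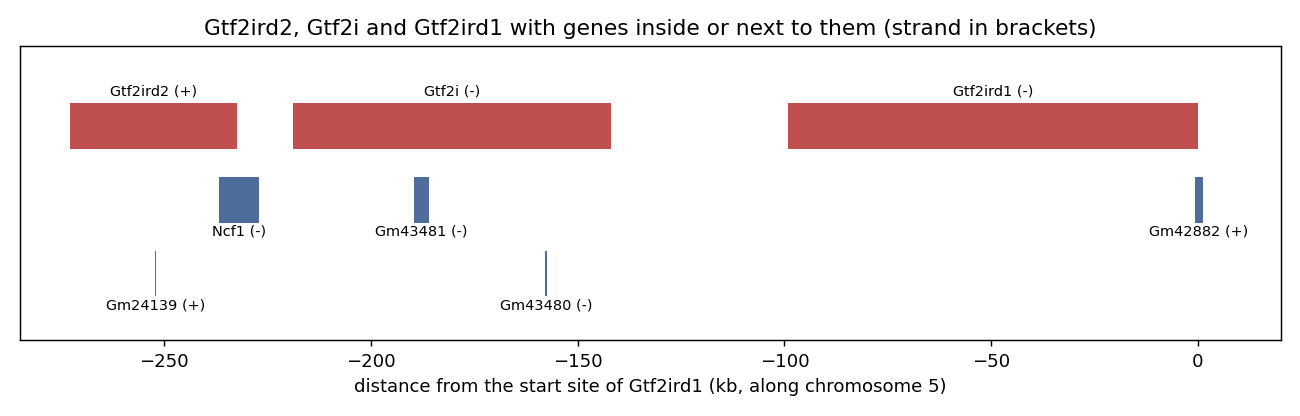
Map of the family locus, with distance from the Gtf2ird1 start site in kb along chromosome 5 on the x axis, family members in red and other annotated genes in blue. Gtf2ird2 and Gtf2i are separated by 13478 bases, and the end of Ncf1 overlaps the end of Gtf2ird2 on the other strand.

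The promoters of Gtf2ird1 and Gtf2ird2 are printed because each holds several copies of a motif tied to this family, and the promoter of Gtf2i holds neither. Sequences are the 250 bases before the RefSeq start site in GRCm38.p6, 5′ to 3′ on the strand of the gene. In the Gtf2ird1 promoter, chr5:134456717-134456966 on the minus strand, capitals mark GGATTA or its reverse complement TAATCC. In the Gtf2ird2 promoter, chr5:134183788-134184037 on the plus strand, capitals mark CACGTG, an E-box bound by the USF proteins.
Gtf2ird1 promoter: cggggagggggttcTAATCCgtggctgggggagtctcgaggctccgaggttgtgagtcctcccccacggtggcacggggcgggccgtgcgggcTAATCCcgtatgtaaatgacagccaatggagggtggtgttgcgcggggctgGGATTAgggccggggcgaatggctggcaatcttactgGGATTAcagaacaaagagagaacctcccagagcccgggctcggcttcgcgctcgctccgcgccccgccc
Gtf2ird2 promoter: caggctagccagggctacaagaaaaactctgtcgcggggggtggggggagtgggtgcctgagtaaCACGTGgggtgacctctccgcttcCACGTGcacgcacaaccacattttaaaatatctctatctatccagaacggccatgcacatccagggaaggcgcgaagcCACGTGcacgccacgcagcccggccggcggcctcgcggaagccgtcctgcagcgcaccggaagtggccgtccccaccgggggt

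GGATTA was searched on both strands, CACGTG reads the same on both, and no match of either motif overlapped a match of the other. The Gtf2ird1 promoter held 4 matches to GGATTA, 2 as written and 2 as the reverse complement, and 0 matches to CACGTG. Among 32851 RefSeq promoters of the same length, 6.25% held at least 1 match to GGATTA and 0.00609%, or 2 promoters, held at least 4, the other being that of the zinc finger gene Zfp352 with 9. The Gtf2ird2 promoter held 3 matches to CACGTG and 0 to GGATTA. At least 3 matches to CACGTG were present in 0.0609% of all promoters and at least 1 in 6.02%. The Gtf2i promoter held 0 matches to either motif. These are matches of letters, and binding was not measured. GGATTA was chosen from the known preference of Gtf2ird1, and CACGTG after the sequences were read.

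Gene counts totalled between 13627501 and 30544144 per library. Reads assigned to no counted feature made up 46.8% to 51.2% of all reads in the libraries labelled knockout and 40.0% to 58.2% in wild type. This class can include reads from introns or from the other strand of annotated genes. Ribosomal and small RNA genes took 3.96% to 8.95% of gene counts in the libraries labelled knockout, against 21.5% in wild type replicate 3 and 5.13% and 6.24% in wild type replicates 1 and 4. The markers went against the Gad2+ label, since microglial transcripts outweighed GABAergic ones in each library by a factor of 32.5 to 205 in summed level. The 15 microglia and macrophage markers summed to 33359 to 37358 CPM (a count scaled to the total gene count of its library) in the libraries labelled knockout and 30404 to 46545 CPM in wild type, and all 15 were detected throughout. The 10 pan-GABAergic markers, also all detected, summed to 526 to 1028 CPM under the knockout label and 177 to 717 CPM in wild type. Gad2, the gene named in the title, had 62.7 to 134 CPM in libraries labelled knockout and 23.8 to 113 CPM in wild type. Xist, transcribed from the inactive X chromosome, was at 0, 0.18 and 2372 CPM in knockout replicates 5, 6 and 7 and at 1557 to 3825 CPM in wild type. The Y-linked gene Ddx3y had 167 and 197 CPM in knockout replicates 5 and 6, 0.0327 CPM in knockout replicate 7 and a count of 0 in wild type.

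The comparison asked whether the family was expressed differently where Gtf2ird1 itself was mutated. None of the 3 genes passed the test. Gtf2ird1 transcripts were not lower in the libraries labelled knockout, and Gtf2i and Gtf2ird2 had small negative fold changes. The level of Gtf2ird1 relative to Gtf2i was higher in each library labelled knockout than in each wild type library. Ratios to Gtf2i did not overlap between groups for 8.97% of 17220 other genes, 6.78% in this direction. The ratio difference did not pass its exact permutation test, with a two-sided p of 0.1, or 0.3 adjusted over 3 ratios. Single genes were tested by edgeR's quasi-likelihood test over 17221 genes with adjustment by Benjamini-Hochberg. In it 1 gene passed an adjusted p of 0.05, or 0.00581%, and it was no member of the family. At an unadjusted p under 0.05 there were 1249 genes, or 7.25% (4.48% higher and 2.77% lower in the libraries labelled knockout), again without a member, and DESeq2 called 21 genes, or 0.124%, none of them in the family.

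Gtf2ird1 had 1271, 678 and 1561 counts in knockout replicates 5, 6 and 7, against 671, 348 and 923 counts in wild type replicates 1, 3 and 4. As levels these were 55.2, 40.6 and 51.1 CPM under the knockout label and 23.2, 25.5 and 55.7 CPM in wild type. Wild type replicate 4 was the highest of all 6 libraries and wild type replicates 1 and 3 were the lowest, so the groups overlapped. The means were 49.0 ± 7.52 CPM for the knockout label and 34.8 ± 18.1 CPM for wild type (SD, n = 3 each), and wild type varied 2.40-fold between its libraries, against 1.36-fold in the libraries labelled knockout.

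The log2 fold change of Gtf2ird1 was 0.37 ± 0.29 (SE; adjusted p by edgeR = 0.703), with a 95% interval from -0.30 to 1.04. The exact permutation test of log2 CPM gave a two-sided p of 0.4, where 3 against 3 libraries cannot go below 0.1. The estimate rested on single wild type libraries: it was 0.77 ± 0.18 without wild type replicate 4 (SE; adjusted p by edgeR = 0.158) and 0.14 ± 0.24 without wild type replicate 1 (SE; adjusted p by edgeR = 0.797). With 1 surrogate variable it was 0.72 ± 0.13 (SE; adjusted p by edgeR = 0.279). The adjusted p lay between 0.158 and 1 over 15 alternatives. The counts sum all exons of the gene, so they do not show whether the mutated part was transcribed and do not check the labels.

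Pan-GABAergic transcripts had a similar order over the libraries to Gtf2ird1. Their sum was 1028, 530 and 526 CPM in knockout replicates 5, 6 and 7 and 268, 177 and 717 CPM in wild type replicates 1, 3 and 4. The 3 libraries with the highest Gtf2ird1 included the 2 with the highest GABAergic sum, and wild type replicates 1 and 3 were lowest in both measures. The microglia and macrophage sum ran in nearly the reverse order to Gtf2ird1. It was 33359, 37358 and 35883 CPM in knockout replicates 5, 6 and 7. In wild type replicates 1, 3 and 4 it was 46545, 36225 and 30404 CPM. The part of cell composition in the Gtf2ird1 level was not tested. In a bulk library, fewer cells of a type and less RNA per cell cannot be told apart.

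Gtf2i, which encodes TFII-I, had 5444, 3266 and 8136 counts in knockout replicates 5, 6 and 7 and 5903, 2506 and 5408 counts in wild type replicates 1, 3 and 4. Its levels were 236, 196 and 266 CPM in the libraries labelled knockout, against 204, 184 and 326 CPM in wild type. Wild type replicate 4 was again the highest library, and the groups overlapped. The means were 233 ± 35.5 CPM for the knockout label and 238 ± 77.2 CPM for wild type (SD, n = 3 each). After TMM scaling, which corrects for differences in library composition, the log2 fold change was -0.16 ± 0.19 (SE; adjusted p by edgeR = 0.802), with a 95% interval from -0.62 to 0.29. The sign turned without wild type replicate 4, where the value was 0.03 ± 0.15 (SE; adjusted p by edgeR = 0.931, between 0.499 and 1 over 15 alternatives).

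Gtf2ird2 was the steadiest of the family. It had 735, 498 and 1110 counts in knockout replicates 5, 6 and 7, against 870, 420 and 653 counts in wild type replicates 1, 3 and 4. Its levels were 31.9, 29.8 and 36.3 CPM in libraries labelled knockout and 30.1, 30.8 and 39.4 CPM in wild type. The whole range over 6 libraries was 1.32-fold, against 2.40-fold for Gtf2ird1 and 1.78-fold for Gtf2i, and the groups overlapped. The means were 32.7 ± 3.32 CPM for the knockout label and 33.4 ± 5.196 CPM for wild type (SD, n = 3 each), and the log2 fold change after TMM scaling was -0.18 ± 0.15 (SE; adjusted p by edgeR = 0.727, between 0.387 and 1 over 15 alternatives). Its 95% interval ran from -0.53 to 0.18. Scaled by library totals alone, the log2 fold changes of Gtf2i and Gtf2ird2 were both -0.03.

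**Figure D2:**
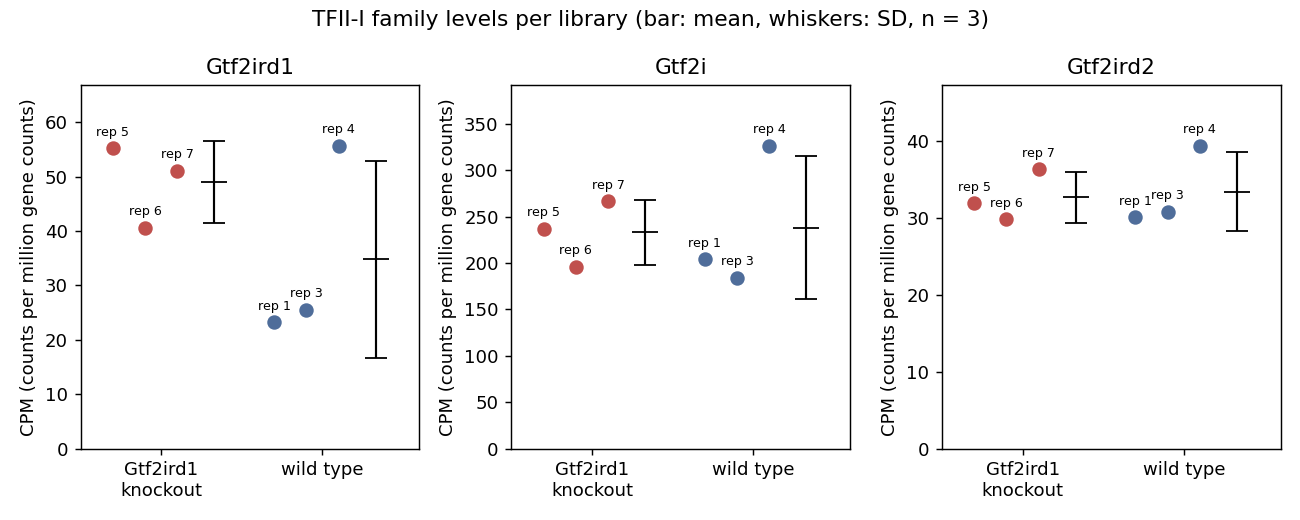
Level of each family member in CPM on the y axis, with 1 point per library, the libraries labelled knockout on the left and wild type on the right, and the mean and SD beside the points. Gtf2ird1 had 40.6 to 55.2 CPM in the libraries labelled knockout, against 23.2, 25.5 and 55.7 CPM in the wild type libraries.

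Set against exon length, Gtf2i was the most abundant member in each of the 6 libraries. Its level per kb of merged exon was 22.8 ± 3.48 CPM per kb in the libraries labelled knockout and 23.3 ± 7.57 CPM per kb in wild type (SD, n = 3 each). Gtf2ird1 had 6.45 ± 0.9899 CPM per kb in the libraries labelled knockout and 4.58 ± 2.39 CPM per kb in wild type. Gtf2ird2 had 5.28 ± 0.535 CPM per kb in the libraries labelled knockout and 5.39 ± 0.838 CPM per kb in wild type. Over all 6 libraries, Gtf2i averaged 23.1 ± 5.27 CPM per kb, with 7.25% of 21865 protein-coding genes above it. Gtf2ird1 averaged 5.52 ± 1.93 and Gtf2ird2 5.33 ± 0.632 CPM per kb (SD, n = 6 each), a difference within their spread. Gtf2ird1 stood above Gtf2ird2 in knockout replicates 5, 6 and 7 and in wild type replicate 4, and below it in wild type replicates 1 and 3.

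Ratios within a library do not depend on how libraries are scaled. That of Gtf2ird1 to Gtf2i did not overlap between groups, as for 8.97% of 17220 other genes. The ratio of Gtf2ird1 to Gtf2i per kb was 0.314, 0.279 and 0.258 in knockout replicates 5, 6 and 7, against 0.153, 0.187 and 0.229 in wild type replicates 1, 3 and 4. The lowest library labelled knockout lay above the highest wild type library. The means were 0.283 ± 0.0282 for the knockout label and 0.189 ± 0.0384 for wild type (SD, n = 3 each), a log2 difference of 0.60 or 1.51-fold. The exact permutation test gave its smallest possible two-sided p of 0.1, and 0.3 after adjustment over the 3 ratios of the family, so the difference did not pass. Among 17220 other genes tested, 8.97% had ratios to Gtf2i that did not overlap between groups, 6.78% with the libraries labelled knockout higher and 2.18% with them lower. With any 1 library left out the log2 difference was between 0.45 and 0.74. Its sign could not change, because the groups did not overlap.

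Marker sums and sex-linked transcripts also differed between the libraries in which this ratio was measured. The pan-GABAergic sums were those given for Gtf2ird1, with 2 of the 3 wild type libraries below each library labelled knockout. The 10 astrocyte markers summed to 6996, 3515 and 4126 CPM in knockout replicates 5, 6 and 7, against 3571, 500 and 303 CPM for wild type replicates 1, 3 and 4, and all were detected in each library. The 10 oligodendrocyte markers, all detected, summed to 2013 to 2652 CPM in the libraries labelled knockout and to 183 to 2378 CPM in wild type. Ddx3y was high in knockout replicates 5 and 6 alone, the libraries with the highest ratios. Knockout replicate 7, with Xist like the wild type libraries, had a ratio of 0.258, against 0.229 or less in wild type. Ddx3y was at 0 CPM in each wild type library, so no wild type library matched knockout replicates 5 and 6 in it. For these 2 libraries sex and the knockout label cannot be told apart. The part of these cell types and of sex in the ratio was not tested.

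The other ratios of the family overlapped. The ratio of Gtf2ird2 to Gtf2i per kb was 0.222, 0.251 and 0.224 in knockout replicates 5, 6 and 7 and 0.242, 0.276 and 0.199 in wild type replicates 1, 3 and 4, a log2 difference of -0.03 (exact permutation test, two-sided p = 1, adjusted over the 3 ratios 1). The ratio of Gtf2ird1 to Gtf2ird2 per kb was 1.41, 1.11 and 1.15 in the libraries labelled knockout, against 0.630, 0.676 and 1.15 in wild type, a log2 difference of 0.62 (exact permutation test, two-sided p = 0.3, adjusted 0.45). Here wild type replicate 4 lay among the libraries labelled knockout. As shares of the family sum per kb, Gtf2ird1 made up 17.4% to 20.4% in the libraries labelled knockout and 10.9% to 16.1% in wild type. Gtf2i made up 65.1% to 67.5% in the libraries labelled knockout and 68.4% to 71.7% in wild type. These shares did not overlap between groups either, but they come from the same counts as the ratio of Gtf2ird1 to Gtf2i and were not tested.

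**Figure D3:**
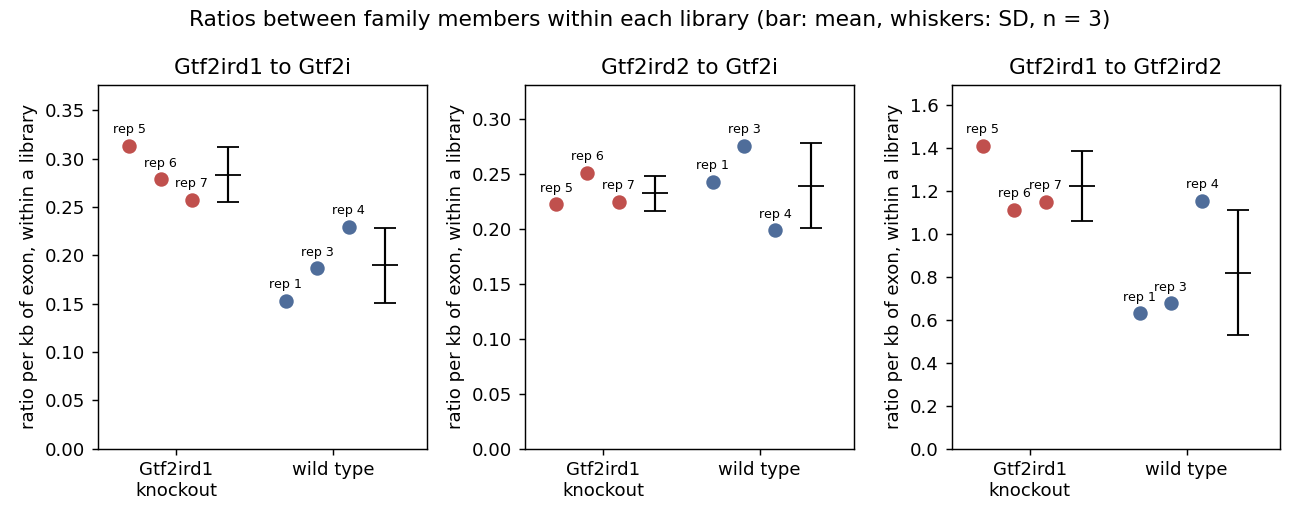
Ratio between family members per kb of exon within each library on the y axis, with 1 point per library, libraries labelled knockout on the left, wild type on the right, and mean and SD beside them. The ratio of Gtf2ird1 to Gtf2i lies between 0.258 and 0.314 in the libraries labelled knockout and between 0.153 and 0.229 in wild type, while the other 2 ratios overlap.

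The members share few exact 50-base words with each other, which bears on the assignment of reads and does not measure their similarity. Of the 50-base words in all annotated transcripts of Gtf2ird1, 1.41% also occurred in a transcript of any other gene, nearly all of them in Gm28883. The share was 0.15% for Gtf2i and 0.48% for Gtf2ird2, and these 2 genes shared 4 words with each other. The counting also kept strands apart. Noncoding genes inside introns of expressed protein-coding genes had a median of 2.28 CPM per kb where they lay on the strand of their host (642 genes), against 0.0192 CPM per kb on the other strand (89 genes). This bears on Gtf2ird2, since 6.58% of its exon bases are also exon bases of Ncf1 on the other strand. Ncf1, a subunit of the phagocyte NADPH oxidase, had 441, 525 and 473 CPM in knockout replicates 5, 6 and 7 and 594, 474 and 431 CPM in wild type replicates 1, 3 and 4, with overlap between the groups. Its log2 fold change was -0.21 ± 0.20 (SE; adjusted p by edgeR = 0.747).

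Transcripts annotated inside introns of the family overlapped between the groups. Gm43481 and Gm43480 lie wholly in introns of Gtf2i on its strand, so their reads cannot be told apart from unspliced Gtf2i RNA. Gm43481 had 23.3, 17.5 and 28.8 CPM in knockout replicates 5, 6 and 7, against 14.3, 20.03 and 50.05 CPM in wild type replicates 1, 3 and 4. Per kb this was 24.8% to 30.0% of the Gtf2i level in the libraries labelled knockout and 19.4%, 30.3% and 42.6% in wild type replicates 1, 3 and 4. Wild type replicate 4, with the highest Gtf2i level, thus also had the highest Gm43481 level relative to it. The order differed for Gm43480, at 24.4% to 27.8% in the libraries labelled knockout and 17.9%, 49.9% and 25.4% in wild type replicates 1, 3 and 4. Reads assigned to no counted feature were 58.2% in wild type replicate 4 and 57.6% in wild type replicate 3. The log2 fold changes of Gm43481 and Gm43480 were -0.39 ± 0.41 and -0.40 ± 0.44 (SE; adjusted p by edgeR = 0.772 and 0.783). Gm24139, inside Gtf2ird2, had 16 to 48 counts in the libraries labelled knockout and 17 to 27 counts in wild type.

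Other genes at the locus had almost no reads. Gm42882, which overlaps the start of Gtf2ird1 on the other strand, had 0 counts in the libraries labelled knockout and 2, 0 and 0 counts in wild type replicates 1, 3 and 4. A count of 0 allows up to 0.0982 to 0.18 CPM in the libraries labelled knockout, for counting error only. Mir3965, n-R5s178 and Gm26340 had a count of 0 in each library. B230377A18Rik, before Gtf2ird2, had 1 to 6 counts in the libraries labelled knockout and 0 to 4 counts in wild type, and Gm16020, beyond Gtf2ird1, had 1 to 2 counts in the libraries labelled knockout and 0 to 1 in wild type.

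Partners and regulators of the family were measured in all 6 libraries and none of the 23 passed by edgeR, DESeq2 or limma-voom. Of all tested genes, 0.00581%, 0.124% and 0.00581% passed by these tests. By edgeR 0 of the 23 had an unadjusted p under 0.05, beside 7.25% of all tested genes. The median log2 fold change was -0.07, beside -0.03 over all tested genes, with 8 values above 0 and 15 below. Smad3, a signal transducer of TGF-beta receptors, had the smallest p. It had 129, 130 and 182 CPM in knockout replicates 5, 6 and 7 and 168, 192 and 156 CPM in wild type replicates 1, 3 and 4, with a log2 fold change of -0.40 ± 0.23 (SE; adjusted p by edgeR = 0.648). Myc, a partner of TFII-I at initiators, had a log2 fold change of -0.83 ± 0.52 (SE; adjusted p by edgeR = 0.662), and its range was set by wild type replicate 3 at 24.0 CPM beside 7.60 to 11 CPM in libraries labelled knockout and 9.23 and 7.97 CPM in wild type replicates 1 and 4. Btk, the kinase that phosphorylates TFII-I, had 61.0, 70.8 and 79.3 CPM in libraries labelled knockout and 80.3, 67.7 and 77.3 CPM in wild type. Prkg1, a cGMP-dependent kinase that binds TFII-I, was low and its groups did not overlap, at 4.47, 4.55 and 5.76 CPM in the libraries labelled knockout against 3.70, 3.23 and 2.05 CPM in wild type, with a log2 fold change of 0.55 ± 0.36 (SE; adjusted p by edgeR = 0.672). It was the only gene of the 23 whose groups did not overlap after TMM scaling, 4.35% of the list beside 13.0% of all tested genes.

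Among the other partners, several were taken after their values were seen. The histone deacetylases Hdac1, Hdac2 and Hdac3, which act with the family in repression, had log2 fold changes of -0.15, 0.24 and 0.20. The demethylase Kdm1a and its corepressor Rcor1 had values of 0.13 and -0.22. Usf1 and Usf2, which bind CACGTG and were named for that motif after their values were seen, had 105, 84.6 and 96.9 CPM and 66.2, 59.3 and 75.3 CPM in knockout replicates 5, 6 and 7, against 103, 86.7 and 100.03 CPM and 71.1, 61.1 and 71.5 CPM in wild type replicates 1, 3 and 4. Their log2 fold changes were -0.17 ± 0.12 and -0.17 ± 0.13 (SE; adjusted p by edgeR = 0.686 and 0.703). Plcg1, the phospholipase bound by cytoplasmic TFII-I, lay between 216 and 352 CPM over the 6 libraries.

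Genes reported elsewhere as targets of the family were mixed. Of 9 listed, 7 were tested, 6 had values above 0 and 1 below, and the median log2 fold change was 0.20 beside -0.03 over all tested genes. This median was 0.0062 when wild type replicate 4 was left out, 0.39 when replicate 1 of wild type was, and 0.056 with 1 surrogate variable. By edgeR, DESeq2 and limma-voom 0 passed, beside 0.00581%, 0.124% and 0.00581% of all tested genes. By edgeR 1 gene had an unadjusted p under 0.05, where 7.25% of all tested genes did. That gene was Ccnd1, which encodes cyclin D1 and is activated by TFII-I in cell lines. It had 63.0, 61.6 and 55.1 CPM in knockout replicates 5, 6 and 7 and 69.8, 76.2 and 74.0 CPM in replicates 1, 3 and 4 of wild type, and the groups did not overlap, as for 13.0% of all tested genes. Its log2 fold change was -0.45 ± 0.16 (SE; adjusted p by edgeR = 0.637).

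Fos, an immediate early gene activated by TFII-I in cell lines, had 599, 518 and 512 CPM in knockout replicates 5, 6 and 7, against 620, 135 and 76.5 CPM in wild type replicates 1, 3 and 4. Wild type replicate 1 was the highest of all and the other wild type libraries were the lowest. The astrocyte and oligodendrocyte sums were also higher in wild type replicate 1 than in the other wild type libraries, by up to 11.8-fold and 13.0-fold, and their part in the Fos values was not tested. The log2 fold change was 0.84 ± 0.67 (SE; adjusted p by edgeR = 0.712), and 2.11 ± 0.36 without wild type replicate 1 (SE; adjusted p by edgeR = 0.0448), the setting in which 321 genes passed. Kdr, the VEGF receptor that TFII-I and Gtf2ird1 regulate in opposite directions in endothelial cells, had a log2 fold change of 0.24 ± 0.28 (SE; adjusted p by edgeR = 0.79). The 8 endothelial and mural markers, all detected, summed to 139 to 241 CPM in libraries labelled knockout and 59.5 to 148 CPM in wild type, and their part in the Kdr value was not tested. Tnni1, the slow troponin gene on which Gtf2ird1 was identified, had 21, 18 and 38 counts in knockout replicates 5, 6 and 7 and 27, 1 and 3 counts in wild type replicates 1, 3 and 4 (adjusted p by edgeR = 0.661). Gsc, another reported target of the family, had 1 count in all, and Hoxc8 had 0.

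General initiation factors of RNA polymerase II, among them the GTF2 subunits of other factors, the TATA-binding protein and its associated TAF proteins, were the third list. All 22 were tested and 0 passed by edgeR, DESeq2 or limma-voom, beside 0.00581%, 0.124% and 0.00581% of all tested genes. By edgeR 0 had an unadjusted p under 0.05, beside 7.25% of all tested genes. The median log2 fold change was -0.02, and values ran from -0.34 to 0.36. The smallest p belonged to Gtf2h5, a TFIIH subunit, at 0.36 ± 0.19 (SE; adjusted p by edgeR = 0.638). Taf5 and Taf1, subunits of TFIID, and Gtf2a2, a subunit of TFIIA, had log2 fold changes of 0.34, 0.21 and 0.23. The log2 fold change of Gtf2ird1, 0.37, was just above the highest of this list, and those of Gtf2i and Gtf2ird2 were inside its range.

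**Figure D4:**
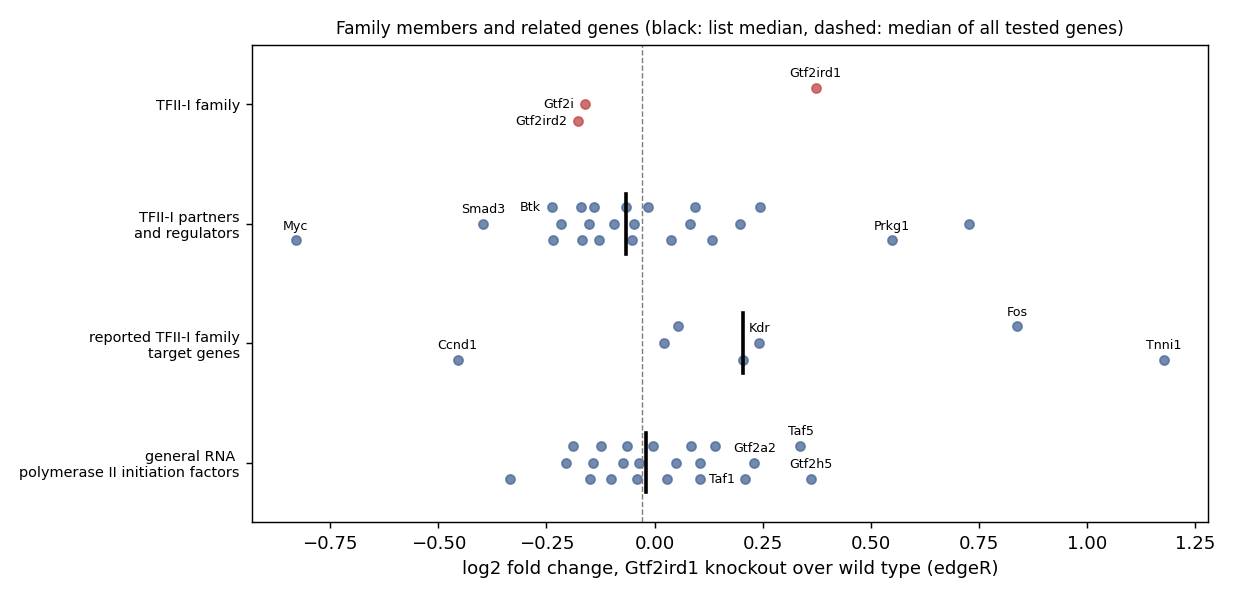
Log2 fold change, knockout label against wild type, on the x axis, with 1 point per gene, for the family and 3 lists of related genes, black bars for list medians and a dashed line for the median of all tested genes. The family lies between -0.18 and 0.37, and Myc, at -0.83, is the lowest of the partners.

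The 3 members were not the closest genes to each other in their levels over the libraries. Likeness was measured as the root mean square difference in log2 CPM after TMM scaling and centring, over 6 libraries and 9338 other protein-coding genes with a mean of at least 10 CPM. Gtf2i and Gtf2ird2 differed by 0.149, and Gtf2ird1 differed from them by 0.352 and 0.43. The measure was not divided by the spread of each gene. Seen from Gtf2ird1, 931 genes were closer to it than Gtf2i was and 2636 were closer than Gtf2ird2. From Gtf2i, 563 genes were closer than Gtf2ird2, and from Gtf2ird2, 1593 genes were closer than Gtf2i. The genes closest to Gtf2ird1 were Epb41l5, Arhgap21, Rnf24 and Rab11fip3, at 0.117 to 0.134. Epb41l5, which encodes a membrane-cytoskeleton adaptor, had 23.9, 19.7 and 20.8 CPM after TMM scaling in knockout replicates 5, 6 and 7, against 12.005, 12.9 and 25.7 CPM in wild type replicates 1, 3 and 4, the same order of high and low wild type libraries as Gtf2ird1.

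The pattern of Gtf2i was nearer to that of many genes. Kmt5c, a histone methyltransferase, differed from it by 0.0277, and Sap130, a subunit of a histone deacetylase complex, by 0.0335, followed by the nuclear receptor Nr2c1 and the nuclear pore gene Nup188 at 0.0395 and 0.0456. For Gtf2ird2 the closest genes were Ikbkb, a kinase of NF-kB signalling, Trappc12, Sidt2 and Lpin1, at 0.0271 to 0.0348. The median difference over all candidates was 0.501 for Gtf2ird1, 0.313 for Gtf2i and 0.252 for Gtf2ird2.

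**Figure D5:**
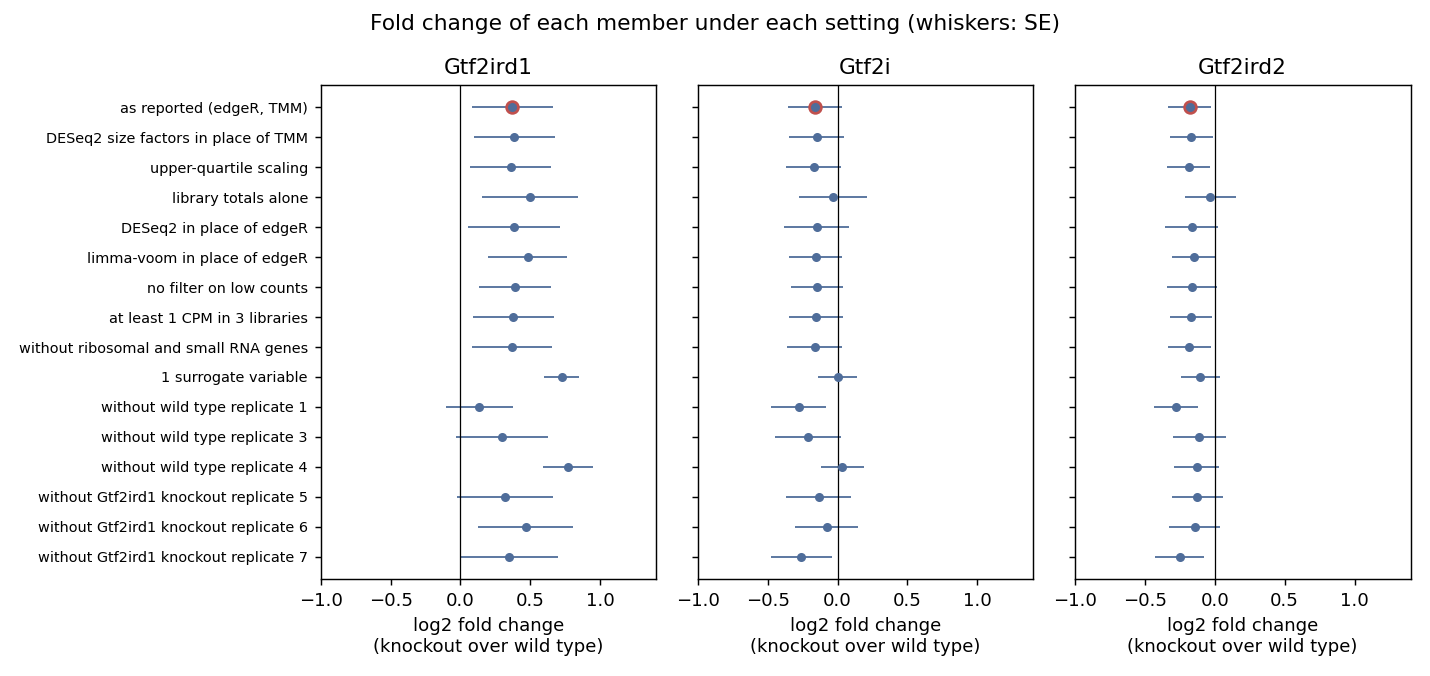
Log2 fold change of each family member, libraries labelled knockout over wild type, on the x axis under each processing setting, with SE as whiskers and the reported value in red. Gtf2ird1 stays above 0, from 0.14 without wild type replicate 1 to 0.77 without wild type replicate 4, and Gtf2i crosses 0 in 2 settings.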

How the data were processed

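The authors deposited raw gene-level read counts, with a separate file for each library. Per the submitters' processing notes, Trim Galore 0.60, STAR 2.7, HTSeq 1.31 and mm10 were used. Per the labels' protocols, libraries came from a stranded total RNA kit. The sources used here do not give the annotation release or counting settings. Of 53379 identifiers, 53274 matched GENCODE M21 without the version, and the 5 summary lines of each file stayed out. Libraries of 1 group differed beyond sampling noise (lowest chi-square per degree of freedom 54.9), so each counted as 1 sample. Depth lay between 13627501 and 30544144 counts.

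Differences were tested with edgeR 4.0.16 in R 4.3.3 (TMM, default expression filter by group, robust quasi-likelihood fit). The fit was checked on simulated counts with the same dispersion for all genes and no differences in cell composition. That check does not cover the spread between these libraries. Ratios were compared by exact permutation. Alternatives used DESeq2 1.42.0, limma 3.58.1 (voom), 1 surrogate variable from sva 3.50.0, other scalings and filters, and leaving out each library. The members and lists were chosen with earlier results of these data known. Named genes were the members, overlapping and adjacent genes, the up to 4 smallest p-values per list and the 4 most alike genes per member. Others were chosen after their values were seen. Values of 1 listed partner are not reported here.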

Additional observations from a re-analysis of the deposited data

How the results depend on the processing

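The log2 fold changes of Gtf2ird1 and Gtf2ird2 kept their sign and stayed on the same side of the threshold under all 15 alternatives, from 0.14 to 0.77 and from -0.28 to -0.03. That of Gtf2i turned to 0.00064 with 1 surrogate variable and to 0.034 without wild type replicate 4, and ran from -0.28 to 0.034 when 1 library was left out. The number of genes called was 21 with DESeq2, 5 without a filter on low counts and 2 with 1 surrogate variable, and 1 to 321 when 1 library was left out, the highest without wild type replicate 1. The median of the partners was 0.077 with library totals alone and -0.036 with 1 surrogate variable, and -0.15 to -0.0042 without 1 library. The median of the initiation factors was 0.11 with library totals alone and -0.038 to 0.066 without 1 library. Library totals alone moved the median of all genes by 0.14. The median of the target genes was 0.0062 to 0.39 without 1 library, with 0 to 1 calls. The log2 difference in the ratio of Gtf2ird2 to Gtf2i ran from -0.16 to 0.081 without 1 library, with a positive sign without knockout replicate 5, at 0.0029, or wild type replicate 3. By the longest transcript in place of merged exons, the mean levels of Gtf2ird1, Gtf2i and Gtf2ird2 were 11.3, 52.9 and 9.498 CPM per kb. The cause of these changes was not tested. No paired analysis was possible because the labels give no pairing of libraries. With 3 libraries per group, single values cannot reach a p under 0.1 by exact permutation.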
